A study of Mus musculus with 4 samples.

Results

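The genes described here are those with symbols of potassium channel alpha (pore-forming) subunits. They were chosen by symbol: Kcn, 1 letter for the subfamily and a number. The deposited tables hold 22096 gene symbols, of which 80 have this form, and 4 of them (Kcna1, Kcna2, Kcnj8 and Kcnj10) were left out by the rule, so 76 remain. The pattern also takes in the 4 Kcne genes, whose products are single-span auxiliary subunits and not alpha subunits, so they are named apart. Kcnma1, the pore of the large-conductance calcium-activated channel, has another form of symbol and is not a member.

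RNA sequencing libraries were made from whole spinal cord of mice at postnatal day 8, with 2 libraries from conditional knockout (cKO) animals (Chd7f/f; Olig1-cre) and 2 from control animals (Chd7f/+; Olig1-cre), all of mixed strain background. Both groups carry the Cre transgene, and the control has a floxed Chd7 allele as well, so a heterozygous state is the baseline. Olig1 is a gene of the oligodendrocyte lineage, and the whole cord was sequenced, not sorted cells of that lineage. The labels do not say whether the libraries of a group came from separate animals, so the tests measure the spread between these libraries.

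Potassium channels let potassium leave or enter a cell along its gradient. In neurons the voltage-gated families (Kcna, Kcnb, Kcnc, Kcnd, Kcnh and Kcnq) repolarise the action potential and set firing, and the Kcnf, Kcng, Kcns and Kcnv subunits, silent on their own, join Kcnb subunits and alter them. Inward rectifiers (Kcnj) and tandem-pore leak channels (Kcnk) hold the resting potential of neurons and glia. Kcnn channels open with internal calcium and Kcnt channels with internal sodium.

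Levels are FPKM, fragments per kilobase of transcript scaled to the mapped total, summed over the transcripts of a gene that are at least 300 bases long. A gene was tested when its mean over the 4 libraries was at least 1 FPKM, which 48 of the 76 members reached. Differences are log2 fold changes of log2(FPKM + 1), cKO minus control, with the standard error (SE) of limma's fit over all 12913 genes tested. Rose and fell mean a Benjamini-Hochberg adjusted p under 0.05 over those genes.

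Of the 48 tested members 3 rose in cKO cords, Kcnk4 and Kcns2 among them, and Kcnj2, Kcnk13 and Kcne4 fell. The 6 calls are 12.5% of the tested members, and 10.7% of all genes tested were called, so the share of members called was near the background. By direction, 6.25% of the members rose and 6.25% fell, while 4.13% of all genes rose and 6.54% fell. The calls in the 2 directions were not equally stable: the falls of Kcnj2 and Kcnk13 passed under each of 3 other scalings and without any 1 library, and no rise did. No call in either direction was left with no filter on low values, with all rows summed or with single transcript rows. Those 3 fits called few genes of any kind, 0.00471%, 0.402% and 0.0702% of all genes in the fit. They count among the alternatives that follow. Kcnk4 missed the threshold under 11 of the 16 alternatives run and Kcns2 under 12.

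The 3 members that fell are low in the cord, and their upstream sequences are shown because their calls carry the downward side of the result. The sequences are the 250 bases before the annotated start in RefSeq on GRCm38.p6, plus strand, 5′ to 3′, with CG dinucleotides in capitals, at chr11:111065914-111066163 for Kcnj2, chr12:99964249-99964498 for Kcnk13 and chr1:78816661-78816910 for Kcne4.
Kcnj2: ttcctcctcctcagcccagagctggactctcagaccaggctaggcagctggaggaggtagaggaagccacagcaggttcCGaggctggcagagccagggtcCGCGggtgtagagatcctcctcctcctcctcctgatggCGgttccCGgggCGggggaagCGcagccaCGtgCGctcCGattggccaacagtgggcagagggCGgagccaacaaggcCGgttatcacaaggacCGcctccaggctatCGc
Kcnk13: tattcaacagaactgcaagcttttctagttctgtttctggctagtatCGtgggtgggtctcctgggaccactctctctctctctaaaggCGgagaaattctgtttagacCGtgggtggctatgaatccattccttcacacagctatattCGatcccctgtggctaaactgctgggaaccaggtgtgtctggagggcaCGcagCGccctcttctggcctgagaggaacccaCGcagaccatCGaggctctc
Kcne4: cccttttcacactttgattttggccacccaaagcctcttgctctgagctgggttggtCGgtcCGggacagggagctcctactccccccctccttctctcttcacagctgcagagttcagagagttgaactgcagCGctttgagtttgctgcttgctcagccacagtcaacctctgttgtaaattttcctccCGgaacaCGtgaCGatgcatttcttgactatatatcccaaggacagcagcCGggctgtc
Kcnj2 has 14 CG dinucleotides at a GC content of 65.6%, Kcnk13 has 8 at 52.8% and Kcne4 has 7 at 53.2%. The table holds windows for 53 members, 69 windows in all, whose median GC content was 58.8%, against 52.4% over all 32851 windows. ACAAAG or ACAATG, core letters of motifs bound by SOX proteins, were sought on both strands. They occur in 13.0% of the members' windows and in 25.2% of all windows, and in none of the 3 printed here, which says only that these letters are not in those windows.

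Kcnj2 encodes a strong inward rectifier (chromosome 11, 110927478 to 110938139 on mm9, 1 transcript). It was at 0.722 and 1.01 FPKM in cKO libraries 1 and 2, against 2.37 and 2.15 FPKM in control libraries 1 and 2. Both cKO libraries lay under both controls, with means of 0.867 ± 0.205 and 2.26 ± 0.157 FPKM (SD, n = 2 each). The log2 fold change was -0.81 ± 0.16 (SE, limma adjusted p = 4.90e-04). The reads behind these values are few: mean coverage per base was 1.15 and 2.31 in cKO and 3.52 and 1.54 in control libraries. Its neighbour Kcnj16, 38.2 kb away on the same chromosome, encodes a rectifier subunit that pairs with the product of Kcnj10 in glia. Kcnj16 was at 14.0 and 15.9 FPKM in cKO and 13.9 and 14.7 FPKM in control libraries, groups that overlap, with a log2 fold change of 0.06 ± 0.15 (adjusted p = 0.854).

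Kcnk13 encodes a halothane-inhibited tandem-pore channel known in the brain from microglia (chromosome 12, 101202709 to 101300892 on mm9). It was at 1.78 and 2.31 FPKM in cKO and 3.61 and 5.13 FPKM in control libraries, so the groups do not overlap. Its log2 fold change was -0.81 ± 0.16 (adjusted p = 5.85e-04). Its 3 transcript rows, of 3061, 3075 and 3112 bases at the same locus, share nearly all their sequence span, and the deposited estimates divide the reads among them unevenly. The 3075-base row held 99.2% of the gene's FPKM in cKO 1 but 0.427% in cKO 2, 0.0181% in control 1 and 0.291% in control 2. A difference in a single row of this gene therefore cannot be read, and the gene sum was used.

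Kcne4, an auxiliary subunit that reduces the current of some voltage-gated channels (chromosome 1, 78813524 to 78816600 on mm9), was at 1.16 and 1.49 FPKM in cKO and 3.33 and 2.61 FPKM in control libraries. The groups do not overlap, and the log2 fold change was -0.77 ± 0.16 (adjusted p = 8.48e-04). Without cKO 1 it did not pass (-0.67, adjusted p = 0.0564). Kcnj2, Kcnk13 and Kcne4 were also the tested members for which both cKO libraries lay under both controls by at least 1.5-fold, a difference found in 2.84% of all genes tested. No tested member was higher by that rule, which 0.991% of all genes met.

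Kcns2, a silent subunit that joins Kcnb subunits (chromosome 15, 34767136 to 34772092 on mm9), was at 4.95 and 4.47 FPKM in cKO and 3.91 and 2.31 FPKM in control libraries. The groups do not overlap, but the 2 controls lie further apart than control 1 lies from the cKO libraries. Its log2 fold change of 0.50 ± 0.16 passed (adjusted p = 0.0422), and without control 2, the shallowest library, it was 0.22 (adjusted p = 0.497). Without cKO 1 or cKO 2 it did not pass either (adjusted p = 0.370 and 0.0648).

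Kcnk4, a mechanically gated leak channel of neurons (chromosome 19, 7000180 to 7009005 on mm9), was at 5.28 and 4.36 FPKM in cKO and 2.60 and 3.78 FPKM in control libraries. Here control 1 was the low library. The log2 fold change was 0.48 ± 0.16 (adjusted p = 0.0434), and it was 0.28 without control 1 (adjusted p = 0.386) and 0.37 without cKO 1 (adjusted p = 0.5499). Kcnk4 and Kcns2 passed under none of the 3 other scalings.

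**Figure D1:**
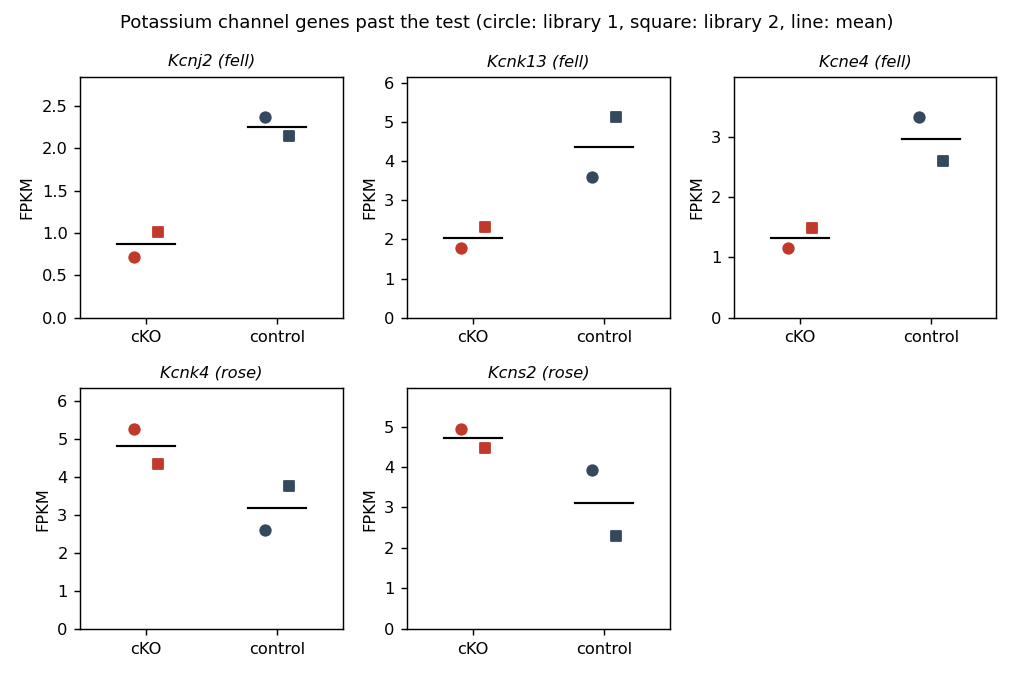
FPKM (vertical axis, from 0) of Kcnj2, Kcnk13, Kcne4, Kcnk4 and Kcns2, which passed the limma test, in the 2 cKO libraries (left) and the 2 control libraries (right), with circles for library 1, squares for library 2 and a line at the mean. In each panel both cKO libraries lie on 1 side of both controls, with the smallest gap for Kcns2 (4.47 FPKM in cKO 2 and 3.91 FPKM in control 1) and Kcnk4 (4.36 FPKM in cKO 2 and 3.78 FPKM in control 2).

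Most other members lay slightly higher in cKO cords, by amounts that did not pass gene by gene. Of the 48 tested members 35 had a log2 fold change above 0, which is 72.9%, while 49.5% of all genes tested did. The median was 0.15 for the members and -0.00 for all genes. For 25 members (52.1%) both cKO libraries lay above both controls, as they did for 24.3% of all genes, and for 7 (14.6%) both lay under, as for 29.3% of all genes. Against the mean of the controls the members' median was 0.19 in cKO 1 and 0.13 in cKO 2. The 2 controls lay at 0.05 and -0.05. These shares describe a list of genes, and no test was made over the list.

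Values of cell type markers that moved alongside are as follows. All but 1 of 16 neuron markers had a log2 fold change above 0 and 2 rose (Slc32a1 and Slc18a3), with summed levels of 2617 to 3095 FPKM in cKO and 2135 to 2194 FPKM in control libraries. All 16 oligodendrocyte markers lay lower and 15 fell, with sums of 6993 to 11038 FPKM in cKO and 17293 to 19584 FPKM in control libraries. Of 12 microglia markers 3 fell (P2ry12, Tmem119 and Cx3cr1) and 1 rose (C1qb), and their sums were 140.3 to 146.5 FPKM in cKO and 148 to 159 FPKM in control libraries. None of 11 tested vascular markers passed, with sums of 131 to 151 FPKM in cKO and 143 to 158 FPKM in control libraries. Of 11 tested meningeal markers 8 fell, with sums of 40.8 to 43.3 FPKM in cKO against 287 FPKM in control 1 and 65.9 FPKM in control 2. Of the other lists, 5 of 10 oligodendrocyte precursor markers fell (Gpr17, Neu4, Bcas1, Vcan and Tnr). The other 5 (Pdgfra, Cspg4, Cspg5, Ptprz1 and Lhfpl3) lay above 0 and did not pass. Of 12 astrocyte markers 7 lay above 0 and 1 of them rose (Slc1a3), while 5 lay below 0 and none fell. The ependymal list had 2 of 6 markers risen and 1 fallen, and the Schwann cell list 2 of 5 risen and 3 fallen. Neither of the 2 tested genes of the muscle list, Acta1 and Pvalb, passed, and the rest of that list had means under 1 FPKM. No marker of these lists was at 0 in all libraries, and their part in the channel results was not tested. Without control 1, the library with the highest meningeal sum, the log2 fold changes of Kcne4, Kcnj2 and Kcnk13 were -0.64, -0.76 and -1.01. In whole tissue, fewer cells of a type and less RNA per cell cannot be told apart.

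**Figure D2:**
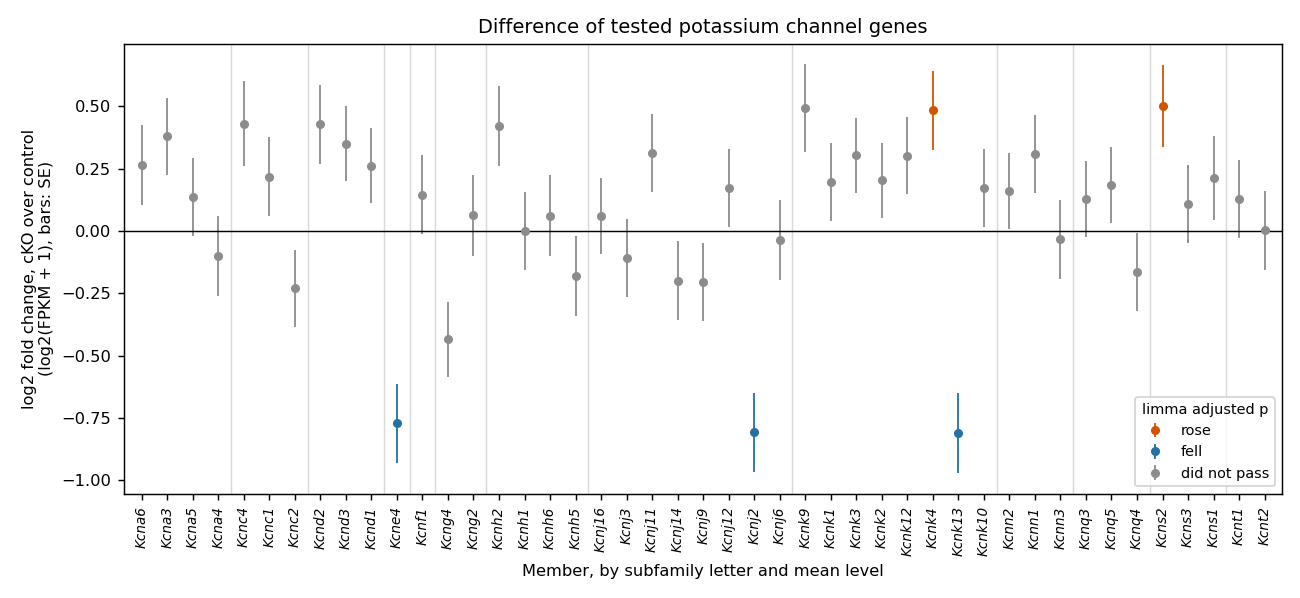
Log2 fold change, cKO over control, on the log2(FPKM + 1) scale (vertical axis) for the tested members reported here, ordered by subfamily letter and within it by mean level, with bars for the SE. Kcnk4 and Kcns2 are marked as risen at 0.48 and 0.50 and Kcnj2, Kcnk13 and Kcne4 as fallen at -0.81, -0.81 and -0.77, and most of the other points lie above 0.

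Among the voltage-gated channels that conduct, the Shaw-related genes let neurons fire at high rates by repolarising them fast. One of them, Kcnc4, had the highest level of all members. Kcnc4 was at 50.2 and 37.5 FPKM in cKO and 30.6 and 33.4 FPKM in control libraries. Both cKO libraries were higher, cKO 1 most, and the log2 fold change of 0.43 ± 0.17 did not pass (adjusted p = 0.0980). It was 0.64 without cKO 2, which passed (adjusted p = 0.0302), and 0.22 without cKO 1 (adjusted p = 0.847). Kcnc1 was at 33.8 and 29.3 FPKM in cKO and 27.6 and 26.3 FPKM in control libraries. Its 2 transcript rows differ in length (4307 and 7788 bases), and the shorter held 69.3% and 66.7% of its FPKM in cKO and 68.1% and 75.2% in control libraries, so the shares of the isoforms overlap between the groups. Kcnc2, named after its values were seen, lay below 0, at 4.92 and 5.60 FPKM in cKO and 7.11 and 5.62 FPKM in control libraries (adjusted p = 0.382).

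The A-type subunits Kcnd1, Kcnd2 and Kcnd3, which open below the firing threshold and delay spikes, were higher in both cKO libraries than in both controls, and none passed. Of all genes tested 24.3% were higher in the same way. Kcnd2 was at 23.0 and 22.4 FPKM in cKO and 18.9 and 14.6 FPKM in control libraries, with a log2 fold change of 0.43 ± 0.16 (adjusted p = 0.0771). Kcnd3, at 0.35 ± 0.15 (adjusted p = 0.139), and Kcnd1, at 0.26 ± 0.15 (adjusted p = 0.294), lay on the same side. The difference of Kcnd2 was 0.60 without control 1, which passed (adjusted p = 0.0281), and 0.25 without control 2, its lowest library (adjusted p = 0.470).

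Kcnq genes carry the M current, which restrains repeated firing. Kcnq3 was at 4.61 and 4.56 FPKM in cKO and 4.63 and 3.64 FPKM in control libraries, and Kcnq5 at 3.78 and 3.61 FPKM in cKO and 3.49 and 2.80 FPKM in control libraries. On the log2 scale they differed by 0.13 and 0.18, short of the threshold (adjusted p = 0.669 and 0.502).

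Kcna6, a Shaker-related delayed rectifier, was the highest of the 6 remaining Kcna genes. It was at 26.4 and 20.4 FPKM in cKO and 20.6 and 17.9 FPKM in control libraries, which overlap (adjusted p = 0.330). Kcna3, known from lymphocytes and microglia as well as neurons, was at 2.77 and 2.80 FPKM in cKO and 2.06 and 1.76 FPKM in control libraries, a log2 fold change of 0.38 ± 0.15 (adjusted p = 0.112). Kcna5 was at 1.65 and 1.70 FPKM in cKO and 1.34 and 1.54 FPKM in control libraries (adjusted p = 0.654). Of these 3 genes the groups of Kcna3 and Kcna5 do not overlap, with both cKO libraries higher.

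Kcnh2, of the ERG type that passes current on recovery from inactivation, was at 23.0 and 17.2 FPKM in cKO and 13.7 and 15.6 FPKM in control libraries. Its log2 fold change of 0.42 ± 0.16 missed the threshold (adjusted p = 0.0864), and it was 0.62 without cKO 2, which passed (adjusted p = 0.0315), and 0.22 without cKO 1 (adjusted p = 0.842). Kcnh5 lay lower in both cKO libraries (0.887 and 0.952 FPKM) than in both controls (1.34 and 1.02 FPKM) and did not pass (adjusted p = 0.539). Kcnh1 was at 2.77 and 2.39 FPKM in cKO and 2.82 and 2.34 FPKM in control libraries, a log2 fold change of 3.23e-04 ± 0.16. Kcnh6, at 1.36 and 1.201 FPKM in cKO and 1.41 and 0.982 FPKM in control libraries, overlapped as well.

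Among the silent subunits, Kcng4 was lower in cKO, at 3.73 and 3.63 FPKM, against 5.09 and 5.56 FPKM in control libraries. The libraries within each group were close, yet the log2 fold change of -0.43 ± 0.15 missed the threshold (adjusted p = 0.0559). It passed with robust moderation (adjusted p = 0.0451). Kcns3 was at 4.50 and 3.52 FPKM in cKO and 3.90 and 3.36 FPKM in control libraries, and Kcns1 at 2.96 and 1.74 FPKM in cKO and 1.61 and 2.10 FPKM in control libraries. Kcnf1 was at 1.498 and 1.49 FPKM in cKO and 1.40 and 1.11 FPKM in control libraries, and Kcng2 at 2.31 and 1.58 FPKM in cKO and 1.62 and 1.99 FPKM in control libraries. Of these 4 genes the groups overlap except for Kcnf1, and none passed. Kcnv1 and Kcnv2 were under 1 FPKM.

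The inward rectifiers were the large subfamily without an upward lean. Of 8 tested members 5 lay below 0, with a median log2 fold change of -0.07, 1 fell (Kcnj2) and none rose. Kcnj3, a G protein-gated subunit, was at 5.83 and 6.59 FPKM in cKO and 7.87 and 5.79 FPKM in control libraries, overlapping groups (adjusted p = 0.727). Kcnj11, the pore of the ATP-sensitive channel, was at 6.27 and 4.62 FPKM in cKO and 4.09 and 4.195 FPKM in control libraries, apart but not called (adjusted p = 0.209). Kcnj10, the main glial rectifier that the rule leaves out, was at 76.6 and 85.6 FPKM in cKO and 120.3 and 117 FPKM in control libraries. It fell by 0.55 on the log2 scale (adjusted p = 0.0488), a call that was lost whichever library was left out (adjusted p from 0.0512 to 0.386). Kcnj9, named here as its neighbour 11.9 kb away on chromosome 1, had a log2 fold change of -0.21 ± 0.16 and did not pass (adjusted p = 0.452).

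Tandem-pore channels made up the other large subfamily, in which 7 of 8 tested members lay above 0. The 7 had both cKO libraries above both controls, as did 52.1% of all tested members and 24.3% of all genes tested. Kcnk4 rose, and the exception was Kcnk13. Kcnk9, an acid-sensitive leak channel, was at 27.1 and 25.9 FPKM in cKO and 24.3 and 14.2 FPKM in control libraries. Control 2 was the low library, and the log2 fold change was 0.49 ± 0.18 (adjusted p = 0.0669). It was 0.86 without control 1, which passed (adjusted p = 5.48e-04), and 0.12 without control 2 (adjusted p = 0.779). Kcnk1, a weak leak channel, was at 24.3 and 23.6 FPKM in cKO and 21.4 and 20.2 FPKM in control libraries (adjusted p = 0.475). Kcnk3, also acid-sensitive, was at 11.3 and 9.24 FPKM in cKO and 8.16 and 8.06 FPKM in control libraries (adjusted p = 0.216).

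None of the channels gated by internal ions passed. Kcnn2, a small-conductance calcium-activated channel that shapes the pause after a spike, was at 18.8 and 18.5 FPKM in cKO and 15.8 and 17.4 FPKM in control libraries. The groups are apart by less than the gap between the controls (adjusted p = 0.572). Kcnn1 was at 4.65 and 3.64 FPKM in cKO and 2.92 and 3.35 FPKM in control libraries (adjusted p = 0.215), and Kcnn3 at 2.03 and 2.76 FPKM in cKO and 2.70 and 2.22 FPKM in control libraries (adjusted p = 0.926). The sodium-activated Kcnt1 was at 23.7 and 24.3 FPKM in cKO and 21.2 and 22.5 FPKM in control libraries (adjusted p = 0.672). Kcnt2 was at 2.26 and 2.72 FPKM in cKO and 2.94 and 2.07 FPKM in control libraries, with groups that overlap.

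**Figure D3:**
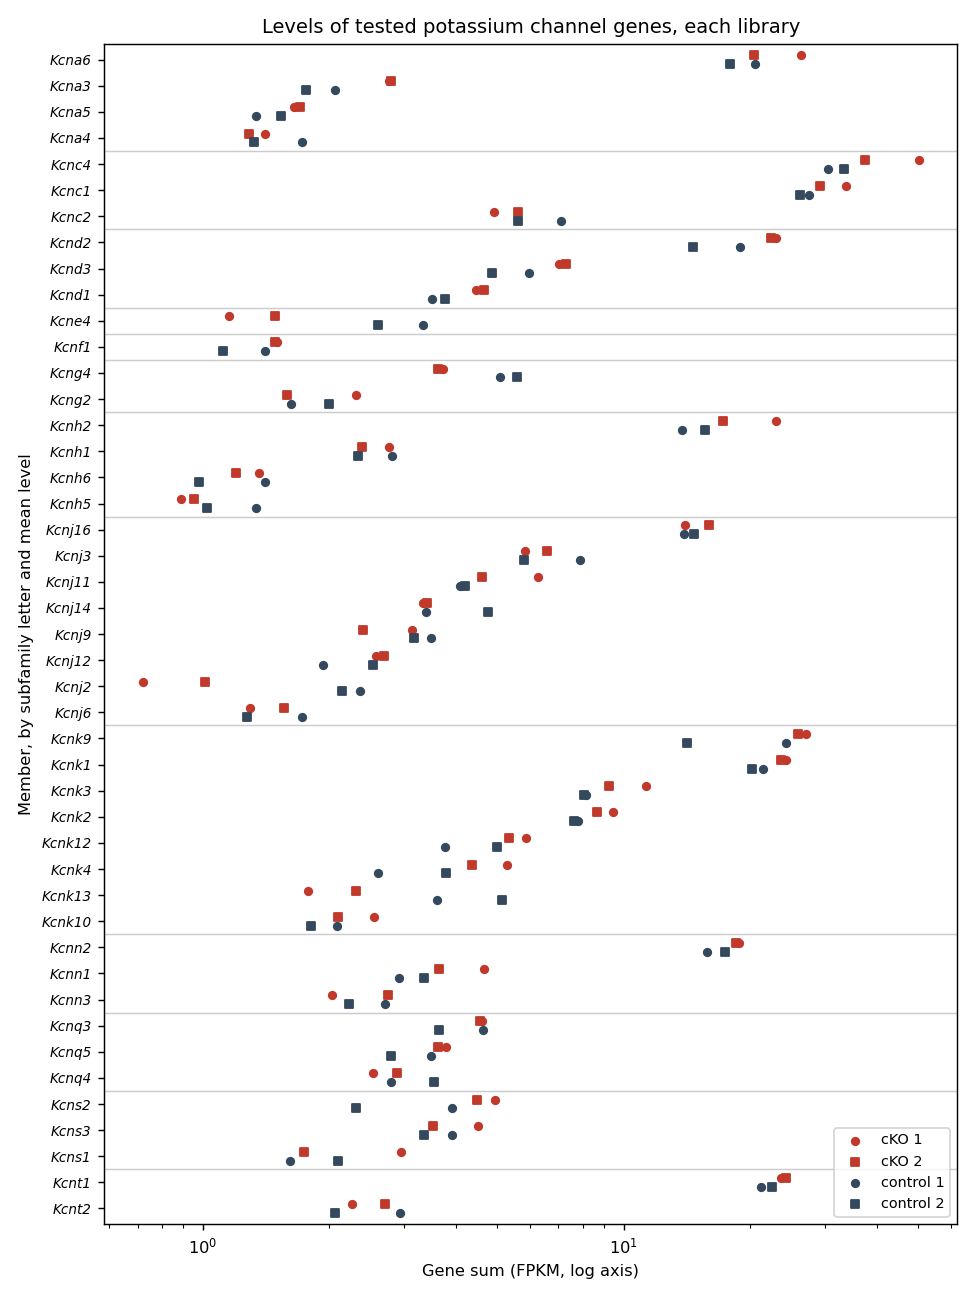
FPKM on a log axis (horizontal) of the tested members reported here in each library, cKO in red above control in dark blue, with circles for library 1 and squares for library 2, ordered by subfamily letter and mean level. By the mean over the 4 libraries Kcnc4 stands highest and Kcnh5 and Kcnh6 lowest, and the cKO points of Kcnj2, at 0.722 and 1.01 FPKM, lie well left of its control points.

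Per kilobase of transcript, 12 members had a mean of at least 10 FPKM, 36 lay between 1 and 10 FPKM, and 28 were under 1 FPKM. The 12 highest held 69.8% and 68.5% of the members' summed FPKM in cKO and 66.3% and 66.2% in control libraries. The median level of the tested members was 3.96 FPKM, against 9.33 FPKM for all genes tested. Near the limit of 1 FPKM, Kcnf1, Kcnh6 and Kcnh5 had means of 1.38, 1.24 and 1.05 FPKM and were tested. Kcnb2, Kcnu1 and Kcnh7, at 0.698, 0.685 and 0.675 FPKM, were not. Of the 28 untested members 7 were at exactly 0 in at least 1 library, none in all. These members were left untested. Among them Kcnh8 was at 0.444 and 0.507 FPKM in cKO and 0.941 and 0.587 FPKM in control libraries, and Kcnj13, known from choroid plexus, at 0.211 and 0.112 FPKM in cKO and 0.626 and 0.362 FPKM in control libraries (both were picked after their values were seen, and in both the cKO libraries lay under the controls).

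Summed by letter, 12 of 16 subfamilies had both cKO libraries above both controls, 3 had both below (Kcne, Kcng and Kcnj), and Kcnv overlapped. The 14 Kcnk genes summed to 88.9 and 82.8 FPKM in cKO and 75.2 and 66.7 FPKM in control libraries. The 13 Kcnj genes summed to 37.9 and 39.0 FPKM in cKO and 39.98 and 39.6 FPKM in control libraries, and Kcnj16 was the highest of them. The Kcne genes summed to 1.505 and 1.85 FPKM in cKO and 3.56 and 2.998 FPKM in control libraries, a log2 ratio of means of -0.97. That sum rests on 1 gene, since Kcne4 made up 86.5% of it. With 2 libraries a group an exact permutation test cannot go below p = 0.333, so these sums were not tested.

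**Figure D4:**
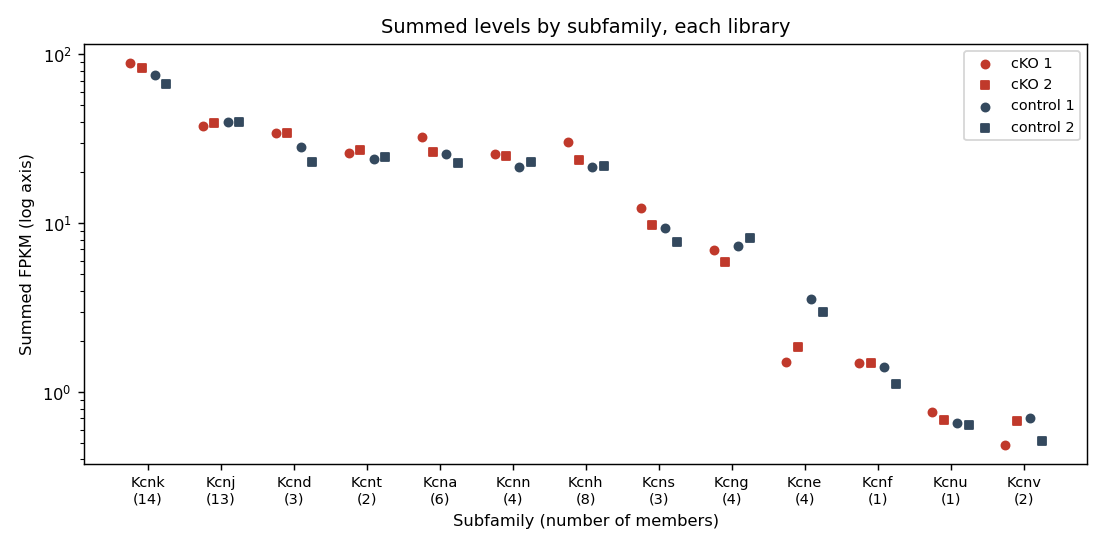
Summed FPKM on a log axis (vertical) of subfamilies in each library, with the number of members below the letter, cKO in red left of control in dark blue, circles for library 1 and squares for library 2. Kcnk stands highest of those drawn, the Kcnj points of the 2 groups lie together near 39 FPKM, and Kcne is lower in cKO (1.505 and 1.85 FPKM) than in control (3.56 and 2.998 FPKM).

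Genes whose products assemble with these channels, or conduct beside them, were described from a list of 33, of which 28 were tested. Kcnip1, Kcnip3, Kcnmb4, Hcn4 and Kcne1l rose and Lrrc55 and Kcnj10 fell, which is 25.0% of the 28 tested. That is 17.9% risen and 7.14% fallen, while 4.13% of all genes tested rose and 6.54% fell. Kcnip3 and Kcnip1 encode calcium-binding partners of the Kcnd subunits. Kcnip3 was higher in cKO by 0.999 ± 0.16 on the log2 scale (adjusted p = 3.14e-05) and Kcnip1 by 0.71 ± 0.17 (adjusted p = 0.00360). Kcnip1 was at 58.3 and 49.4 FPKM in cKO and 33.9 and 31.2 FPKM in control libraries. The related Kcnip2, at 0.044 on that scale, and Kcnip4, at 0.16, missed the threshold. The partners Kcnip1 and Kcnip3 passed and Kcnd1, Kcnd2 and Kcnd3 did not, though all of them lay above 0. Whether the partners differed more than the Kcnd genes was not tested. Without cKO 1 Kcnip1 and Kcnmb4 did not pass (adjusted p = 0.127 and 0.228), and without control 1 Kcnmb4 and Kcne1l did not (adjusted p = 0.079 and 0.0951).

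Kcnmb4, the beta subunit of the large-conductance channel in neurons, was at 19.1 and 14.9 FPKM in cKO and 8.98 and 11.7 FPKM in control libraries (adjusted p = 0.00417). Lrrc55, an auxiliary gamma subunit of the same channel, was at 5.79 and 7.39 FPKM in cKO and 13.1 and 12.9 FPKM in control libraries (log2 fold change -0.89 ± 0.15, adjusted p = 8.27e-05). The groups of both genes do not overlap, in opposite directions, and the 2 cKO libraries of Kcnmb4 lie further apart than its groups do, while the pore gene Kcnma1 was at 4.43 and 4.46 FPKM in cKO and 4.61 and 3.03 FPKM in control libraries and did not pass. Kcne1l, a KCNE-like gene, was at 47.3 and 55.9 FPKM in cKO and 27.8 and 34.2 FPKM in control libraries (log2 fold change 0.72 ± 0.17, adjusted p = 0.00333), opposite to Kcne4. Hcn4, a pacemaker cation channel, was at 5.72 and 5.95 FPKM in cKO and 3.69 and 3.02 FPKM in control libraries (adjusted p = 0.00307).

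The other 3 genes that the rule leaves out did not pass. Kcna1, of the juxtaparanode, was at 15.5 and 15.2 FPKM in cKO and 19.95 and 15.9 FPKM in control libraries. Kcna2 was at 5.51 and 6.26 FPKM in cKO and 8.14 and 5.32 FPKM in control libraries. Kcnj8, the pore of the vascular ATP-sensitive channel, was at 4.24 and 3.25 FPKM in cKO and 2.75 and 2.29 FPKM in control libraries (adjusted p = 0.0741). Its log2 fold change of 0.43 was 0.52 without control 1, which passed (adjusted p = 0.0328), 0.33 without control 2 (adjusted p = 0.232) and 0.28 without cKO 1 (adjusted p = 0.754).

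Across the series, relative depth was 2.22 and 3.19 in cKO libraries 1 and 2 and 2.07 and 1.0 in control libraries 1 and 2. Both cKO libraries were thus deeper than both controls, and the part of depth in the channel results was not tested. Chd7 itself was at 2.52 and 3.38 FPKM in cKO and 3.52 and 3.12 FPKM in control libraries and did not pass (adjusted p = 0.657), so its level did not separate the groups. The Y-linked gene Ddx3y was at 11.6 FPKM in cKO 2 and at most 0.195 FPKM in the other 3 libraries, so the libraries differ in sex. The part of sex in the channel results was not tested. Without cKO 1, 2.98% of all genes were called, and of the members Kcnj2 and Kcnk13 remained.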

How the data were processed

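Spinal cord RNA was extracted with Trizol and made into TruSeq RNA libraries, per the labels' protocols. The authors deposited 1 table per library with FPKM and coverage for 28107 RefSeq transcript rows, in the Cufflinks layout per the file headers. The submitters' processing notes list CASAVA, TopHat, Cufflinks, Cuffdiff and the build mm9, and no versions. Coverage is a deposited signal of mean depth per base, and its ratio to FPKM gave relative depth, because totals of reads were not to hand. FPKM is no count, so no count model was used.

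Tables were matched row by row on the transcript, its symbol, its locus and its length. The 315 rows with a status other than OK were left out, none of them of a member. Gene sums were transformed as log2(FPKM + 1) and tested with limma 3.58.1 in R 4.3.3, with moderated variances that follow a trend on the mean (36.3 prior and 2 residual degrees of freedom, so the spread is mostly pooled over genes). No other gene of the tables overlaps a tested member's locus. The code was tested on simulated data.

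The members, the lists and the use of gene sums were chosen with earlier results of these data known. Named were all called members, those beyond 1.5-fold with no overlap, the 3 highest tested members of each letter, and the 3 members on either side of 1 FPKM. Some members that the rule names count in the totals but are not reported here. Coordinates are mm9, 1-based, and RefSeq sequences GRCm38.p6. Alternatives were pseudocounts of 0.1 and 0.5, no filter or 0.3 FPKM, 3 scalings, moderation without trend or robust, all rows, single transcripts, a replicate block and leaving out each library. A block of crossed numbers was added after seeing the data.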

Additional observations from a re-analysis of the deposited data

How the results depend on the processing

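When 1 library was left out, the lone library of a group was assumed to vary like the others. The members' median log2 fold change then ran from 0.13 to 0.19, and the members that rose differed with the library left out. The count of members that rose was 1 with a filter of 0.3 FPKM, median-of-ratios scaling, quantile normalization, no trend or the replicate block. In those fits 3.41%, 3.24%, 2.4%, 3.76% and 2.72% of all genes rose, in that order. The count was 0 with TPM scaling, where 1.54% of all genes rose. With no filter, all rows summed or single transcript rows 0 rose and 0 fell, where these fits called 0.00471%, 0.402% and 0.0702% of all genes. Of the other potassium channel genes 0 rose and 0 fell in those 3 fits, 3 to 6 rose without 1 library, and 1 fell whichever library was left out, and also with a filter of 0.3 FPKM, median-of-ratios scaling or the replicate block. The members' median was 0.21 with a pseudocount of 0.1 and 0.062 with no filter. Under the replicate block 351 genes rose and 645 fell, against 533 and 845 without it, and Kcnk4 and Kcns2 did not pass. Same-numbered libraries did not deviate together (correlation -0.24). Crossed numbers as a block, chosen after seeing the data, called 7 members risen and 4 fallen. That fit called 16.9% of all genes, with 7.3% risen and 9.56% fallen. Log2 fold changes near 0 changed sign: Kcnh1 was -0.027 with TPM scaling and -0.11 with single transcript rows, Kcnt2 -0.021 with TPM scaling, Kcnn3 0.036 with quantile normalization, and Kcnip2 -0.12 and Kcnip4 -0.32 with single transcript rows. Without 1 library the values ran for Chd7 from -0.29 to 0.023, Kcna2 from -0.41 to 0.12, Kcng2 from -0.12 to 0.24, Kcnh1 from -0.096 to 0.096, Kcnh6 from -0.079 to 0.20, Kcnip2 from -0.040 to 0.13, Kcnip4 from -0.052 to 0.37, Kcnj16 from -0.029 to 0.15, Kcnj3 from -0.30 to 0.084, Kcnma1 from -0.043 to 0.43, Kcnn3 from -0.19 to 0.12, Kcnq3 from -0.012 to 0.27, Kcns1 from -0.054 to 0.48, Kcns3 from -0.033 to 0.25 and Kcnt2 from -0.18 to 0.18. The causes were not tested. Few reads limit the low members: the lowest mean coverage of a tested member was 0.704 per base.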
